A study of Mus musculus with 8 samples.

Results

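The secretion genes described here are the small GTPases Rab27a and Rab27b and 8 genes whose products act with them, the 5 synaptotagmin-like genes Sytl1 to Sytl5, the linkers Mlph and Myrip, and the priming factor Unc13d. They were taken from the arrays by gene name, which gave 17 of 55681 probes. The genes were chosen with their difference between GFP-positive and GFP-negative cells already known, so that difference is given below as a description, without a test. Of the 17 probes, 9 from 6 genes were distinguishable from background on 4 or more arrays of 8, and these are called kept probes. The array as a whole gave 27590 kept probes of 19775 genes, a count that includes loci and probes without a gene symbol. Sytl1, Unc13d and Rab27b have 2 kept probes each, and Sytl2, Sytl3 and Rab27a have 1 each.

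The arrays measured RNA from MAM326, a mouse mammary cancer cell line, sorted by fluorescence into GFP-positive cells (4 arrays) and GFP-negative cells (4 arrays). All cells came from this 1 line, were grown in serum-containing medium without any other named treatment, and were sorted at day 2 of culture, in 4 separate experiments that used cells of different passage. Each array received Cy3-labelled RNA made from 20 ng of total RNA. By its title the study concerns stem cells of mammary cancer, and the labels do not name the promoter or construct behind the GFP signal. The labels do not say whether GFP-positive and GFP-negative arrays of the same replicate number came from the same experiment.

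Rab27 proteins sit on secretory granules, on lysosome-related organelles such as melanosomes and cytotoxic granules, and on multivesicular bodies. When bound to GTP they recruit effectors, which tether the organelle to the plasma membrane or link it to a myosin motor on actin. The synaptotagmin-like proteins (Slp) carry an amino-terminal Rab27-binding domain and C2 domains that bind membranes. In mouse and human, loss of Rab27a, Mlph or Unc13d causes pigment or immune secretion disorders.

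The sequences of a probe and of the promoter place Sytl1, the gene with the largest difference in the set. The first is the probe nearer the gene's start, on the minus strand at chr4:132811975-132812034 (mm9, the build the files use). The second is the RefSeq promoter of Sytl1 at chr4:133263038-133263337 (GRCm38.p6, minus strand), which runs from 250 bases before to 50 bases after the gene's start.
Sytl1 probe A_55_P2163561: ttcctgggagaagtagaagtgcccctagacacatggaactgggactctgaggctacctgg
Sytl1 promoter: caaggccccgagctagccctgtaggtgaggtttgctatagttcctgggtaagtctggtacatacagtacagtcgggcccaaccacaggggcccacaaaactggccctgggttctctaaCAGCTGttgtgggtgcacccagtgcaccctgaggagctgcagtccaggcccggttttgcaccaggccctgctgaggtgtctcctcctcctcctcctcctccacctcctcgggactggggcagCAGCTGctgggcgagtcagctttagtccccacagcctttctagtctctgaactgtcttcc
The capitals mark CAGCTG, a palindrome and therefore the same on both strands, which is 1 form of the E-box CANNTG. It begins at positions -132 and -10 relative to the gene's start. CAGCTG occurred in 16.3% of 32851 RefSeq promoters of the same length, and any CANNTG in 72.3%. Sytl1's window held no TATAAA (in 13.6% of promoters on either strand) and no GGGCGG (in 35.7%). It held 5 CpG dinucleotides, and 43.6% of all promoters had as few. RefSeq windows were examined for 7 of the 10 genes (Sytl1, Sytl3, Sytl4, Sytl5, Rab27a, Mlph and Myrip), with 8 promoters. The windows of the other genes of the set were not examined, so nothing is said of CAGCTG in them. CAGCTG was also found once in the second Rab27a window and once in that of Mlph. A match of letters is a description of the window and not a binding site.

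Per array, 45.1% to 57.4% of the probes were well above background, with the lowest count (25105) in GFP-positive replicate 2 and the highest (31965) in GFP-positive replicate 3. Levels below are log2 processed signals relative to each array's 75th percentile, so a level of 0 equals that percentile. No probe's level is set against that of another. Errors of levels are SDs over 4 arrays, and errors of differences are standard errors of the fit. All 8 arrays lay on 1 slide and were scanned once. The first slide row held GFP-positive replicates 1 and 3 and GFP-negative replicates 2 and 4, and the second row held the rest. The 11 markers of mammary epithelium were well above background on all 8 arrays. Of the 15 leukocyte markers, 6 were well above background on all 8 arrays, 5 passed on 1 array (Ptprc and Adgre1 among them) and 4 on none (Lyz2, Kit and Mcpt4 among them). Of the 7 melanocyte markers, Tyr, Pmel and Mitf were well above background on all 8 arrays, and Tyrp1, Dct, Mlana and Slc45a2 on none. In such sorted populations, fewer cells of a type and less RNA per cell cannot be told apart.

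Both Rab27 GTPases were measured in both populations, at overlapping levels. Rab27a (chr9:72944668-72944727), the form best known from melanosomes and cytotoxic granules, had levels of -3.20, -3.44, -3.24 and -2.91 in GFP-positive cells, against -3.60, -3.03, -3.09 and -3.46 in GFP-negative cells. The difference was 0.10 ± 0.16, smaller than the spread within either group. Rab27b, the form best known from exocrine and endocrine granules, had levels of 0.72, 0.69, 0.40 and 0.51 in GFP-positive cells and 0.10, 0.59, 0.52 and 0.48 in GFP-negative cells at its brighter probe. That probe's difference was 0.16 ± 0.13, and only GFP-negative replicate 1 lay clearly below the other arrays. The second Rab27b probe averaged -2.23 ± 0.25 in GFP-positive cells and -2.40 ± 0.25 in GFP-negative cells, a difference of 0.17 ± 0.16. The 2 Rab27b probes varied together over the 8 arrays (r = 0.81, a description over shared arrays).

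Sytl1 was higher on every GFP-positive array than on any GFP-negative array, at both of its probes. Sytl1, also called Slp1 or JFC1, is a Rab27 effector known from neutrophil granule release and from exocrine secretion. At the brighter probe (chr4:132809016-132809075, minus strand) its levels were 2.46, 1.99, 2.26 and 1.93 in GFP-positive cells, against -0.89, -1.67, -0.74 and -1.19 in GFP-negative cells. The same spots had processed signals of 2932, 1739, 2909 and 1856 in GFP-positive cells and 269, 171, 278 and 213 in GFP-negative cells. Sytl1 averaged 2.16 ± 0.25 in GFP-positive cells and -1.12 ± 0.41 in GFP-negative cells, so that the difference was 3.28 ± 0.22, or 9.72-fold. Ordered from the most positive difference to the most negative, this probe stood at rank 10 of 27590 kept probes.

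The second Sytl1 probe, whose sequence is printed above, gave the same picture at a dimmer signal. Its levels were -0.47, -1.02, -0.55 and -1.0 in GFP-positive cells, against -4.10, -4.81, -4.07 and -4.27 in GFP-negative cells. The difference was 3.56 ± 0.20, or 11.8-fold, at rank 4 in the same order. All 4 GFP-negative arrays measured it well above background, with processed signals between 19.5 and 29.0. With normexp background correction the difference of this dim probe was 2.17 and that of the brighter probe 2.96. The 2 probes correlated at 0.999 over the 8 arrays and at 0.959 after each group's mean was subtracted, again over shared arrays.

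**Figure D1:**
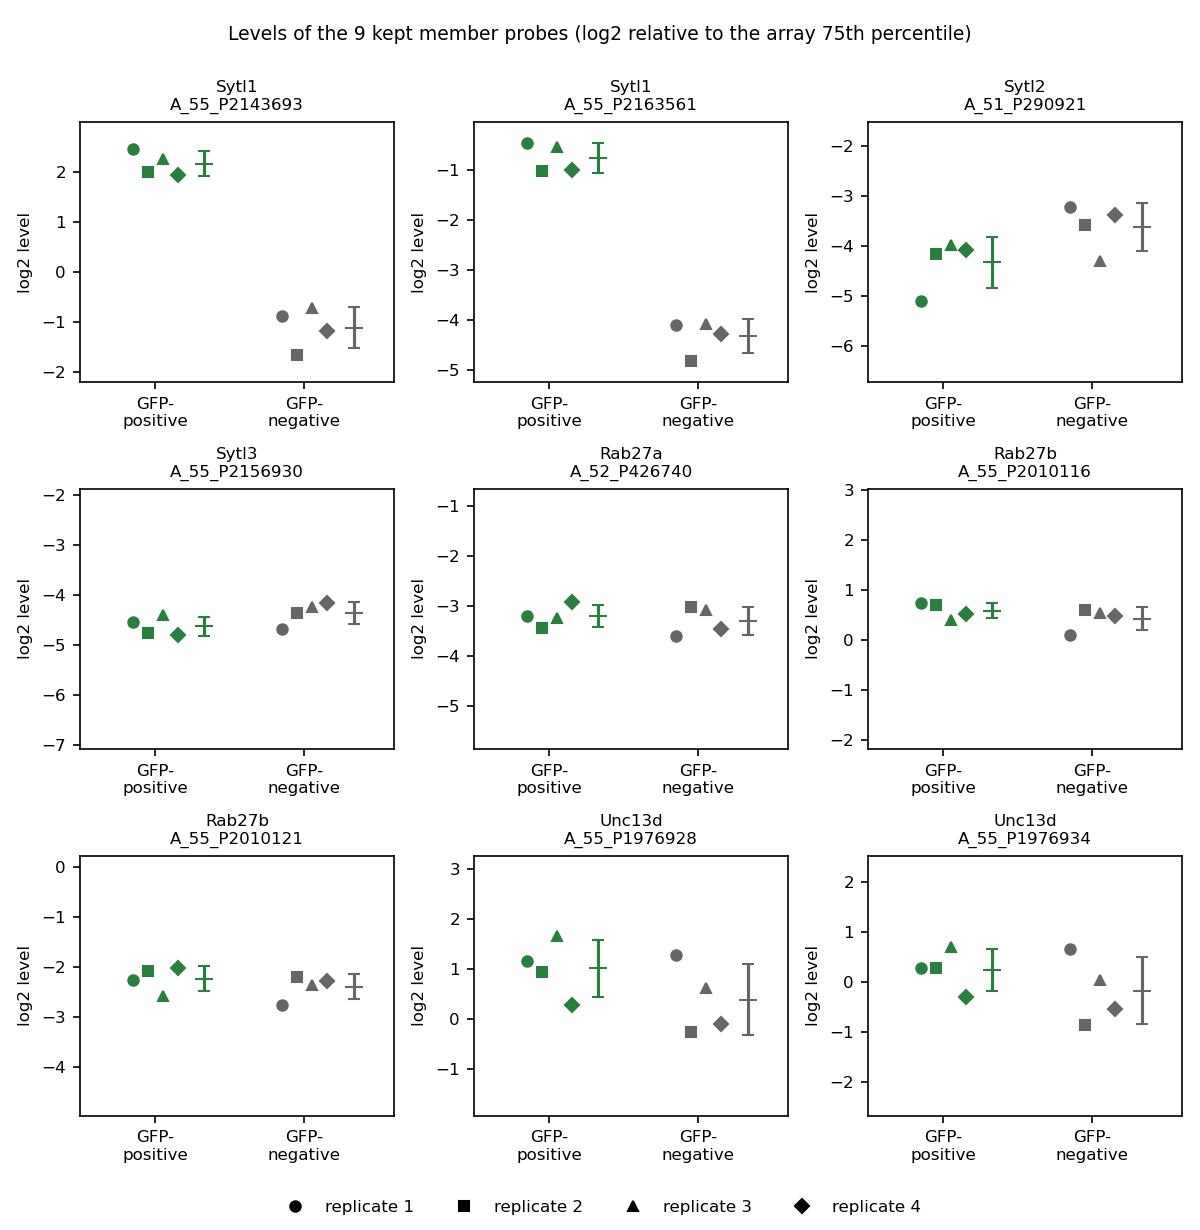
Log2 level (relative to the array's 75th percentile) of each of the 9 kept probes, with 1 symbol per array in GFP-positive (left, green) and GFP-negative cells (right, grey) and the mean ± SD beside them. Each panel spans the same range of 5.2 log2 units around its own centre. The 2 Sytl1 probes are separated by group, and the other 7 overlap.

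The other synaptotagmin-like genes did not share this pattern. Sytl2, an effector known from melanosome and granule docking in several secretory cells, had levels of -5.10, -4.16, -3.99 and -4.08 in GFP-positive cells, against -3.23, -3.58, -4.30 and -3.39 in GFP-negative cells. The groups overlapped through GFP-negative replicate 3, and the difference was -0.71 ± 0.31. GFP-positive replicate 1 lay well below the other GFP-positive arrays. Sytl3, an effector studied in lymphocytes and mast cells, had levels of -4.56, -4.77, -4.41 and -4.80 in GFP-positive cells and -4.68, -4.38, -4.26 and -4.18 in GFP-negative cells at its 1 kept probe. Its groups overlapped, with a difference of -0.26 ± 0.14, and 3 of 4 GFP-positive arrays and 4 of 4 GFP-negative arrays were well above background.

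The remaining 8 probes were below the limit for testing. Sytl4 (granuphilin, a granule-docking effector of endocrine cells), with 2 probes, Sytl5, and Mlph (melanophilin, which links Rab27a on melanosomes to myosin Va), with 1 probe each, were not well above background on any array. The same held for 1 of the 3 other Sytl3 probes. The other 2 Sytl3 probes and the probe of Myrip, which links Rab27 to myosin VIIa and Va, were well above background on GFP-positive replicate 3 alone, at levels of -4.88, -5.20 and -4.81. That array also had the most probes above background, so no fold is given for these genes.

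Unc13d (Munc13-4) primes granules for fusion and binds Rab27. At its brighter probe (chr11:115923410-115923469, minus strand) the levels were 1.16, 0.94, 1.65 and 0.28 in GFP-positive cells, against 1.27, -0.27, 0.62 and -0.11 in GFP-negative cells. Replicates 1 and 3 were high and replicates 2 and 4 low in GFP-negative cells, and replicate 4 was the lowest in GFP-positive cells, so the groups overlapped. It averaged 1.01 ± 0.57 in GFP-positive cells and 0.38 ± 0.71 in GFP-negative cells, so that the difference was 0.63 ± 0.40. The second probe (chr11:115936930-115936989, minus strand) had levels of 0.27, 0.26, 0.69 and -0.31 in GFP-positive cells and 0.66, -0.86, 0.02 and -0.56 in GFP-negative cells. Its difference was 0.41 ± 0.35, and it followed the first probe across the arrays (r = 0.98). Of the 9 kept probes, 2, both of Sytl1, passed the threshold of the fit (adjusted p under 0.05), both upward, and had no overlap between groups. Of all kept probes, 2.00% passed the threshold (1.52% upward and 0.478% downward), and in 15.8% the groups did not overlap. Because the genes were chosen on this contrast, nothing is read from that count.

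**Figure D2:**
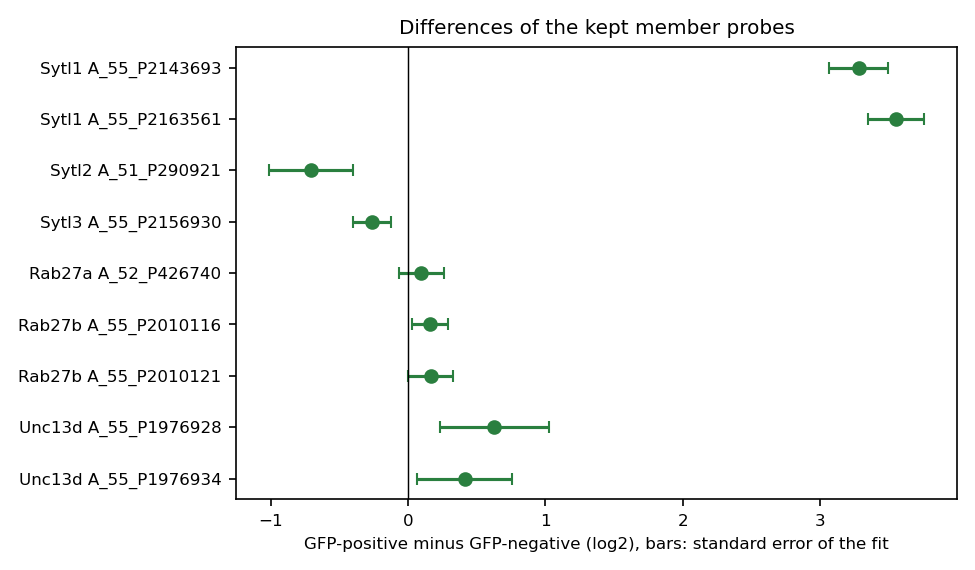
GFP-positive minus GFP-negative difference (log2, x axis) of each kept probe (y axis), with bars for the standard error of the fit. The Sytl1 probes lie at 3.28 and 3.56, and the other 7 lie between -0.71 and 0.63.

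Whether the difference depended on the slide row was tested with an interaction term in limma, a measure that did not enter the choice of genes. In this layout that term is the same contrast as replicates 1 and 3 against replicates 2 and 4 over both groups, so row and replicate number cannot be told apart. It passed in none of the 9 kept probes, against 0.874% of all kept probes (Benjamini-Hochberg over all of them). Without adjustment, 5 of the 9 had p under 0.05, both Sytl1 probes, both Unc13d probes and 1 of Rab27b, against 18.9% of all kept probes. For Unc13d the difference was 1.59 in the first row and -0.34 in the second at the brighter probe (second minus first -1.93 ± 0.45, limma adjusted p = 0.105). At the other Unc13d probe it was 1.19 in the first row and -0.37 in the second (-1.56 ± 0.43, limma adjusted p = 0.140). For Sytl1 the difference was 3.79 in the first row and 2.77 in the second at the brighter probe (-1.02 ± 0.26, limma adjusted p = 0.122), and 4.04 and 3.07 at the other. Sytl1 was thus higher in GFP-positive cells within each row. The second-row differences of Unc13d were near the size of their standard errors (0.35 at the brighter probe and 0.33 at the other). No turn of sign is read from them. The second Rab27b probe ran the other way, with -0.17 in the first row and 0.50 in the second (0.67 ± 0.25, limma adjusted p = 0.230). After subtraction of group means it correlated with the brighter Unc13d probe at -0.92 over the 8 arrays, as a description.

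The interaction was also read in the wider secretion machinery. Among 113 tested genes of 8 lists it passed in 4, against 0.946% of all genes. Unc13b (Munc13-2, a relative of Unc13d) had levels of 1.20, 0.79, 1.34 and 0.59 in GFP-positive cells and 1.20, -0.03, 0.93 and -0.05 in GFP-negative cells, with replicates 1 and 3 high in both. Its difference was 1.3 in the first row and -0.37 in the second (limma adjusted p = 0.0411). Stxbp2 (Munc18-2), a syntaxin-binding partner in granule fusion, had levels of 3.64, 3.29, 3.62 and 3.12 in GFP-positive cells and 3.15, 2.50, 3.07 and 2.54 in GFP-negative cells (limma adjusted p = 0.0498).

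Rph3al (Noc2), which binds Rab3 and Rab27, had levels of -0.27, -0.75, -0.47 and -0.94 in GFP-positive cells, against -0.96, -1.67, -0.78 and -1.75 in GFP-negative cells (limma adjusted p = 0.0496). Myo5b, a myosin that carries Rab11 vesicles, had levels of 1.12, 0.67, 1.21 and 0.43 in GFP-positive cells and 0.51, -0.40, 0.69 and -0.31 in GFP-negative cells (limma adjusted p = 0.0411). All 4 were lower in replicates 2 and 4 than in replicates 1 and 3 of the same group. With any 1 of the 8 arrays left out, none of the 4 passed, and adjusted p then lay between 0.0545 and 0.173. Rph3al also missed the threshold with quantile normalization (adjusted p = 0.0537). The mean level of the 11 epithelial markers followed the same arrays, at 4.29, 3.96, 4.31 and 3.62 in GFP-positive cells and 3.81, 3.05, 3.83 and 3.04 in GFP-negative cells. The mean of the 6 tested fibroblast markers ran the other way, at -0.14, 0.79, -1.74 and 1.5 in GFP-positive cells and 0.04, 2.90, 1.89 and 2.18 in GFP-negative cells. The interaction itself passed in 4 of the 11 epithelial markers, Epcam, Cdh1, Krt19 and Cldn7, and in 1 fibroblast marker, Pdgfra, with the opposite sign (limma adjusted p between 0.0403 and 0.0483). Without GFP-negative replicate 3 the interaction passed in 29 of all kept probes. With any other array left out it passed in 0, so the calls of these markers were lost there as well. The part of these markers in the results was not tested.

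**Figure D3:**
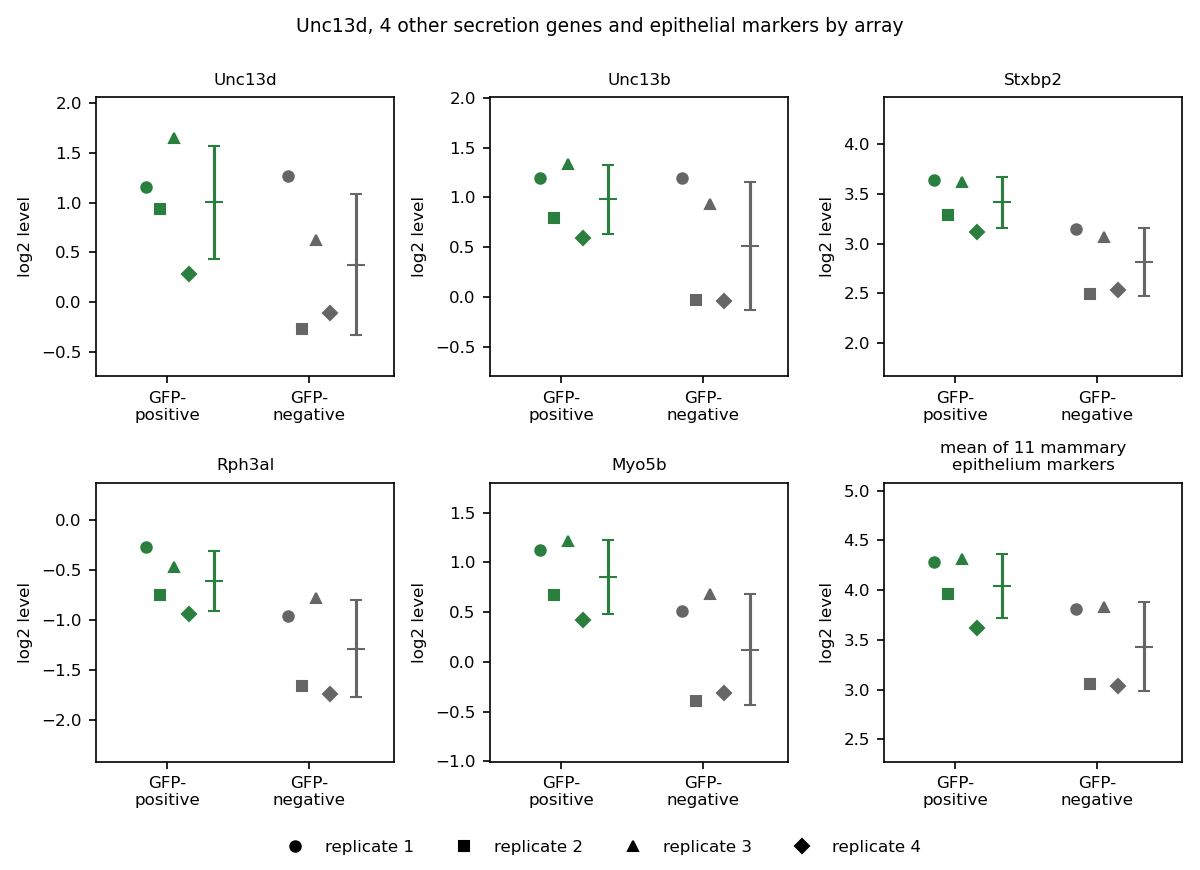
Log2 level of Unc13d (brighter probe), Unc13b, Stxbp2, Rph3al, Myo5b and the mean of 11 mammary epithelium markers on each array, GFP-positive on the left and GFP-negative on the right, with 1 symbol shape per replicate number and mean ± SD beside. In GFP-negative cells replicates 1 and 3 lie above replicates 2 and 4 in every panel.

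The wider Rab27 pathway was followed in 8 lists of genes. Over these lists, 3 of 113 tested genes rose in GFP-positive cells and 0 fell at a limma adjusted p under 0.05 (2.65%), a share near the 2.11% of all 19775 genes (1.63% rising and 0.480% falling). At an unadjusted p under 0.05, GFP-positive levels were above GFP-negative ones for 12 of the 113 and below for 5, against 7.77% above and 14.5% below among all genes. The median difference of the lists was 0.01, and that of all genes was -0.06. Groups did not overlap in 11 of the 113 genes (9.73%), against 16.6% of all genes. Markers of cell types were compared between the groups as well. Over the 8 arrays all 11 epithelial markers had a positive difference (median 0.48, 0 past the threshold and 4 at an unadjusted p under 0.05). All 6 tested fibroblast markers had a negative one (median -1.78, 0 past the threshold and 1 unadjusted). These signs held for every marker in the first slide row but not in the second. There Epcam, Cdh1, Krt7, Krt8, Krt18, Krt19 and Cldn7 had negative differences (-0.30 to -0.11), and Krt5, Krt14, Cldn3 and Cldn4 positive ones. Of the fibroblast markers, Col1a1, Col1a2, Col3a1, Pdgfra and Pdgfrb had positive differences there (0.31 to 0.94), and Dcn a negative one. The 6 tested leukocyte markers averaged -0.11 to 0.24 in GFP-positive cells and -0.12 to 0.20 in GFP-negative cells. The part of these markers in the differences of Sytl1 and of the list genes was not tested.

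None of the 10 Rab27 regulators passed the threshold. These are the exchange factor Madd, the Tbc1d10 GTPase-activating proteins and the prenylation and GDI proteins, and their differences ran from -0.26 to 0.27. None of 13 tested other secretory Rabs and effectors passed (median 0.01), nor did any of 24 Munc13, Munc18 and SNARE proteins (0.04), 13 synaptotagmins and double C2 proteins (-0.10) or 18 genes of lysosome-related organelle biogenesis (-0.05). At an unadjusted p under 0.05 the 5 lists held 0, 1, 4, 1 and 0 genes higher and 1, 1, 0, 0 and 3 genes lower in GFP-positive cells, in the order named.

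In 3 lists 1 gene passed the threshold, of 9 tested exocyst subunits, 21 genes of exosomes and multivesicular bodies and 5 organelle myosins. Exoc4 (Sec8), a subunit of the complex that tethers vesicles at the plasma membrane, had levels of 1.39, 1.24, 1.48 and 1.03 in GFP-positive cells, against 0.32, -0.01, 0.51 and 0.13 in GFP-negative cells. It was 1.05 ± 0.14 higher, or 2.07-fold (limma adjusted p = 0.0117), with separate groups. A dimmer second Exoc4 probe differed by 0.40 ± 0.40 (limma adjusted p = 0.595). Without GFP-positive replicate 1 the first probe's adjusted p was 0.0575.

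Cd81, a tetraspanin abundant on exosomes, had levels of 6.0, 5.92, 5.96 and 6.03 in GFP-positive cells, against 5.00, 5.33, 4.98 and 5.34 in GFP-negative cells. It was 0.81 ± 0.11 higher, or 1.76-fold (limma adjusted p = 0.0104), and the adjusted p was 0.136 with arrays scaled to their median and 0.0518 without GFP-positive replicate 1. Myo6, a myosin that moves toward actin minus ends, had levels of -3.87, -4.25, -3.59 and -3.92 in GFP-positive cells, against -4.99, -4.62, -4.84 and -4.90 in GFP-negative cells. Its difference was 0.93 ± 0.15 (limma adjusted p = 0.0237) but 0.26 with normexp background correction (adjusted p = 0.0745). In all, 13 of 20 alternatives ended the Myo6 call, among them quantile normalization (0.0619) and median scaling (0.0855). The Myo6 call was also lost without GFP-positive replicate 1 or 4 and without GFP-negative replicate 1, 3 or 4, with adjusted p between 0.0595 and 0.0990.

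**Figure D4:**
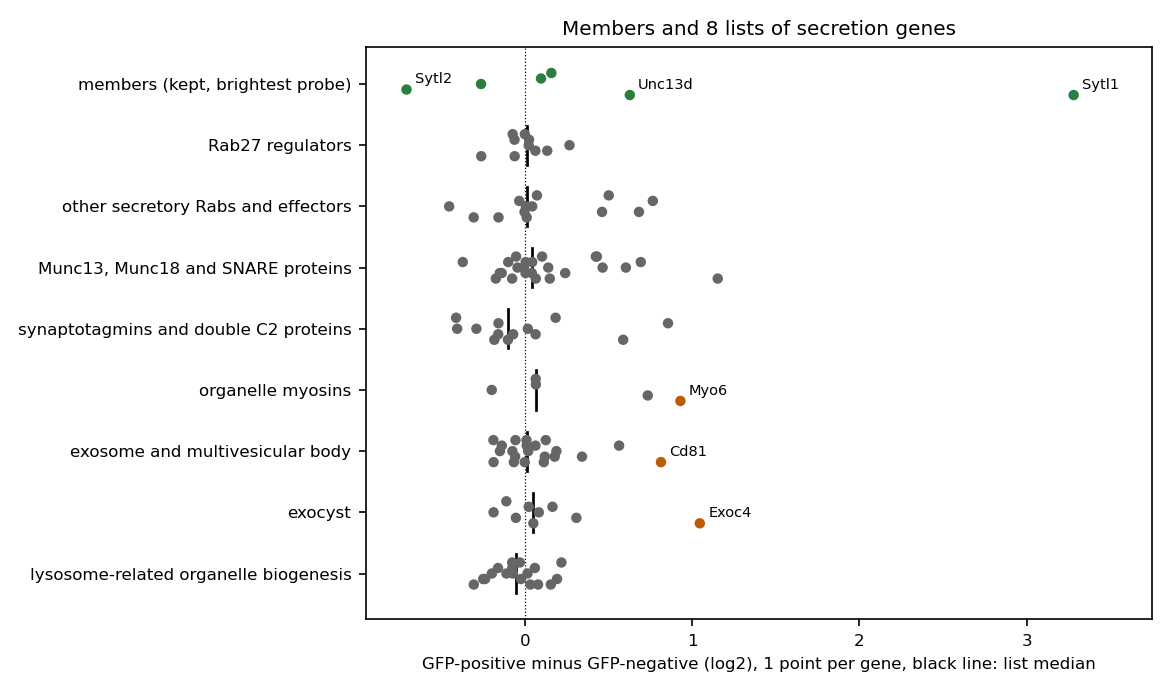
GFP-positive minus GFP-negative difference (log2, x axis) of each gene's brightest kept probe, for the 6 genes of the set with kept probes (green, top) and the 8 lists of secretion machinery (1 row each, with a black line at the list median). Orange points with names are list genes past the adjusted threshold, Exoc4, Cd81 and Myo6. List medians lie between -0.10 and 0.07.

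Probes of other genes within 250 kb of Sytl1 were compared with it. There were 18 other kept probes, and 2 of them, both of Map3k6, a stress-activated MAP kinase kinase kinase, passed the threshold. Map3k6 probes lie on the plus strand, 0.232 and 0.344 kb from the brighter Sytl1 probe on the minus strand. The nearer (chr4:132808784-132808843) had levels of 1.45, 1.41, 1.44 and 1.38 in GFP-positive cells, against 0.97, 0.85, 0.96 and 1.07 in GFP-negative cells, a difference of 0.46 ± 0.07 (limma adjusted p = 0.0225). The other (chr4:132808672-132808731) had levels of 0.93, 0.77, 0.93 and 0.83 in GFP-positive cells, against 0.37, -0.0069, 0.28 and 0.34 in GFP-negative cells. It differed by 0.62 ± 0.10 (limma adjusted p = 0.0261).

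The Map3k6 differences were 1.37-fold and 1.54-fold, against 9.72-fold for Sytl1. Both kept their sign in both slide rows, and neither passed with arrays scaled to their median (adjusted p = 0.216 for the nearer and 0.144 for the other) or with no filter (0.227 and 0.182). The farther probe also missed the threshold with slide row as a block (0.0574) and with a filter of at least 1 array (0.0547). The nearer probe passed no longer when any 1 of the 4 GFP-positive arrays or GFP-negative replicate 1, 2 or 3 was left out (adjusted p 0.0511 to 0.105), and the other without GFP-positive replicate 1, 3 or 4 or GFP-negative replicate 3 or 4 (0.0641 to 0.112). The other 16 probes, from 9 named genes and 2 unnamed loci, had differences from -0.47 to 0.46. Among them were Tmem222 (0.00) and Wdtc1 (0.02), the nearest on the other side, and Wasf2. None of the 16 passed, and at an unadjusted p under 0.05 0 were higher and 2 lower in GFP-positive cells.

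**Figure D5:**
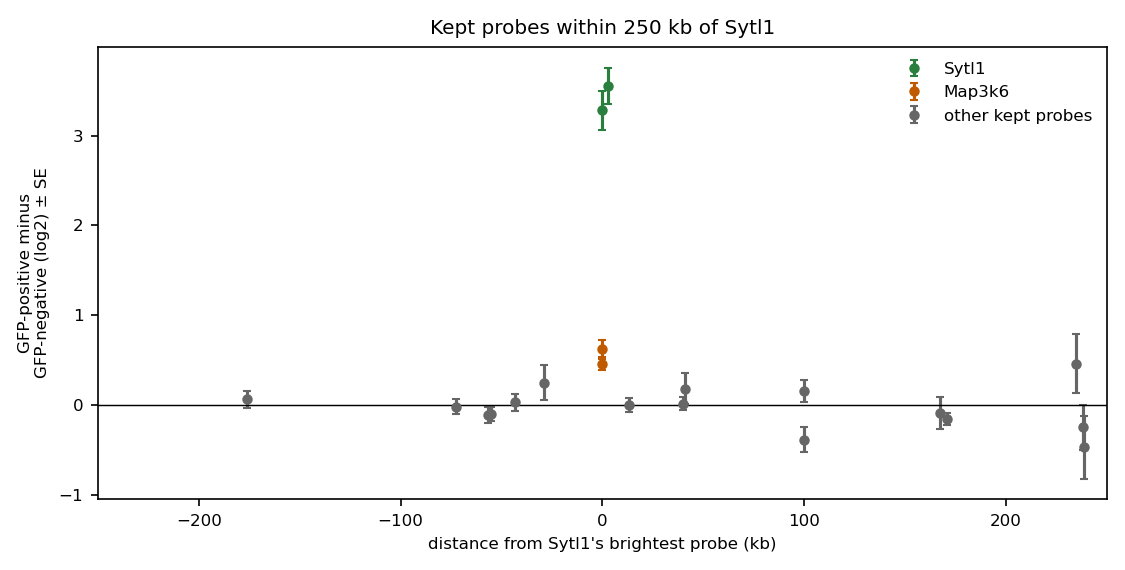
GFP-positive minus GFP-negative difference (log2, y axis, bars for the standard error) of the kept probes within 250 kb of the brighter Sytl1 probe, against distance from it in kb (x axis). The 2 Sytl1 probes stand above 3, the 2 Map3k6 probes at 0.46 and 0.62, and the other 16 between -0.47 and 0.46.

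Genes whose levels ran most like those of Sytl1 over the 8 arrays were sought by Pearson correlation with its brighter probe. It was computed for 19763 other genes, but only genes with a RefSeq symbol were ranked. The highest of these were 1700007K13Rik (r = 0.995, difference 3.49), Celf5 (an RNA-binding protein, r = 0.994, 2.82) and Plch2 (a phospholipase C, r = 0.993, 2.62). Next came Trim7 (a ubiquitin ligase, r = 0.993, 1.61) and Tctn1 (a ciliary transition zone protein, r = 0.991, 0.71). Such values are dominated by the gap between the groups. After each group's mean was subtracted the highest were Cntfr (r = 0.982), Cyth1 (0.979) and Chrng (0.973), whose own differences were 0.76, 0.17 and 0.25. Within groups Sytl1 and the brighter Unc13d probe correlated at 0.75. All these values share the same 8 arrays and describe them only.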

How the data were processed

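Each deposited file held 1 array's scanner output from Agilent Feature Extraction 10.7.3.1 (protocol GE1_107_Sep09, probe positions on mm9), per the file headers. The deposited intensity values used were the processed signal, already background-corrected by that program, and, for 1 alternative, the mean signal and median local background. No source used here gives the authors' further steps. Of 62976 spots, 59305 were non-control. Spots flagged as non-uniform or population outliers (106 to 186 per array) were dropped, and no spot was saturated. Log2 signals were computed here from the deposited intensities, set relative to each array's 75th percentile and averaged per probe. The 27590 probes well above background on at least 4 arrays were kept. The difference between GFP-positive and GFP-negative cells came from limma 3.58.1 (R 4.3.3, data.table version 1.17.8; lmFit, eBayes, two-sided, no replicate block), with Benjamini-Hochberg adjustment over all kept probes and a threshold of 0.05. Genes were counted by their brightest kept probe. Symbols came from RefSeq where the accession matched (27509 probes, 49.4%), and elsewhere the file's own gene name was used. Shares of all genes are thus over named genes and unnamed loci together, of which 14083 had a RefSeq symbol.

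The genes, lists and tests were chosen with earlier results of these data known. Named are all 10 genes, up to 3 list genes past the threshold per list, and genes within 250 kb of Sytl1. Also named are list genes past the interaction threshold (chosen after their values were seen) and the 5 and 3 genes most correlated with Sytl1. Those 5 and 3 were picked among genes with a RefSeq symbol. P-values measure the spread between these 8 arrays, whose number limits precision. Steps were tested on simulated data. Alternatives covered background correction, scaling, filtering, variance model, slide row, replicate block and leaving out each array. Probes were not placed in exons or untranslated regions.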

Additional observations from a re-analysis of the deposited data

Results flagged for a closer look

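Sytl2 in GFP-positive replicate 1, at a level of -5.10, lay far from the other 3 GFP-positive arrays, with a gap that was 0.845 of the group's range, past Dixon's critical value at 95% for 4 samples. Of 52 groups of 4 arrays examined for the named genes, it was the only 1 past the critical value. Chance gives about 1 in every 20 groups, so 1 among 52 does not stand out.

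The interaction of GFP group with slide row passed in 4 list genes (limma adjusted p between 0.0411 and 0.0498). Its values (second row minus first) were -1.68 in Unc13b, -1.57 in Myo5b, -1.31 in Rph3al and -1.01 in Stxbp2. In this layout row and replicate number cannot be told apart. A change of the GFP-positive minus GFP-negative difference itself is therefore not read from these values. None of the 4 passed when any 1 array was left out, and Rph3al did not with quantile normalization (adjusted p = 0.0537).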

How the results depend on the processing

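No difference that passed in the main fit turned its sign under any of the alternatives run, nor did the interaction of the 4 list genes. The interactions of the cell type markers were not followed through the alternatives. Probes past the threshold numbered 552 (420 higher, 132 lower in GFP-positive cells). The count was 896 with normexp (510 higher, 386 lower), 241 with median scaling (216 higher, 25 lower), 160 with no filter, 296 with probes above background on at least 1 array, 1348 with an intensity trend and robust prior and 1840 with array weights. It was 335 with slide row as a block, 1277 within row 1, 0 within row 2 (2989 at an unadjusted p under 0.05) and 181 to 439 with 1 array left out. Median scaling moved the median difference of all kept probes to -0.18. Of the 9 kept probes of the set, 2 passed, against 3 in row 1, where the brighter Unc13d probe was added (limma adjusted p = 0.0337). The count was 0 in row 2 (2 at an unadjusted p under 0.05) and 1 with 1 feature per gene, by construction. Since the set was chosen on this contrast, these counts support nothing. The brighter Sytl1 probe differed by 3.79 in row 1, 2.77 in row 2 and 3.1 to 3.41 with 1 array left out. List genes that rose numbered 3, against 1 with median scaling, 0 with no filter (13 unadjusted), 9 in row 1 (with 1 lower), 0 in row 2 (6 unadjusted) and 0 to 3 with 1 array left out, 0 being without GFP-positive replicate 1. With no filter the adjusted p of Exoc4, Cd81 and Myo6 was 0.0665, 0.0765 and 0.124. The interaction passed in 241 probes, 916 with trend and robust prior, 1014 with normexp and 0 to 29 with 1 array left out, an alternative chosen after seeing the data that leaves 3 residual degrees of freedom (3443 to 5663 unadjusted).

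With replicate number as a block, which here equals the slide column, 220 probes passed and 1 list gene (Exoc4) rose. The adjusted p was then 0.0634 for Cd81, 0.105 for Myo6, and 0.117 (nearer) and 0.0733 (farther) for the Map3k6 probes. Deviations of same-numbered arrays correlated at -0.02 to 0.16, and no array correlated best with its own number. The best matches (0.30 to 0.62) joined replicate 1 with 3 and replicate 2 with 4. Such correlations, over 4 arrays per group, cannot decide whether same-numbered arrays shared an experiment. The main fit had no block because the labels do not mark the numbers as pairs. With the block, the standard errors of both Sytl1 probes, both Unc13d probes and the dimmer Rab27b probe fell. Those of Sytl2, Sytl3, Rab27a and the brighter Rab27b probe rose. The causes of these shifts were not tested. Probes near background are the least certain, and 8 arrays on 1 slide limit what can be resolved.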
